A study of Mus musculus with 10 samples.

Results

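The genes described are the heat shock proteins and chaperonins of a mouse myeloid progenitor line, followed through withdrawal and return of estradiol. They are protein-coding genes of the Hsp, Dnaja, Dnajb, Dnajc and Cct symbol series, with Tcp1, that reached at least 1 RPKM in 2 or more libraries. RPKM is a read number scaled to transcript length and library size. Members were chosen by the same RPKM values that are described below, and the threshold itself is not a finding. Of 83 genes with such symbols, 82 were listed in the files and 64 passed the threshold, among 13004 genes tested. The 64 were 3 HSP90 genes, 10 of the HSP70 family, 2 labelled HSP70 partners, 2 small heat shock proteins, 2 mitochondrial chaperonins, 7 subunits of the cytosolic chaperonin TRiC/CCT and 38 J proteins. The 2 labelled partners were Hspbp1 and Hspbap1, and Hspbap1 has that label by its symbol alone. One symbol of the series, Dnajc5g, was not listed.

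The cells were ER-Hoxa9-Lys-GFP cells, a C57BL/6 culture line carrying a fusion of Hoxa9 with an estrogen receptor domain. Its medium was RPMI plus serum, with conditioned medium as the source of stem cell factor. The series asked when such cells become committed to myeloid differentiation. Untreated cells kept estradiol (E2). The 24 h group was washed free of E2 for 24 h and then had it again for 96 h. For the 40 h group these times were 40 and 80 h, and for the 72 h group 72 and 48 h. The 120 h group had no E2 for 120 h. Across the add-back groups a longer withdrawal came with a shorter time after E2 returned, so their effects cannot be told apart. Every group had 2 libraries. Nothing in the labels says that the pair came from separate cultures, so a p-value here reflects the spread of these libraries alone, and that spread may be technical. The cells are 1 line carrying a fusion protein, and 3 add-back groups are analysed here.

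Chaperones bind unfolded or partly folded proteins and use cycles of ATP to let them fold, assemble or cross membranes. HSP70 proteins work with J proteins, which deliver clients and speed ATP hydrolysis, and with nucleotide exchange factors, which reset the cycle. HSP90 matures kinases and receptors, the estrogen receptor domain among its known clients. Chaperonins enclose a client in a chamber, TRiC/CCT in the cytosol for actin, tubulin and others, and HSP60 with its lid HSP10 in mitochondria. Distinct programs drive them: heat shock factors act on cytosolic genes, and the unfolded protein response acts on those of the endoplasmic reticulum (ER).

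Library denominators, recovered from the steps between RPKM values, were 173620000 to 204386000 reads. The labelled cell type was checked against 7 progenitor markers (Kit, Cd34, Flt3, Meis1, Myb, Mpo and Spi1). All 7 were at 1 RPKM or more in both untreated libraries, and their summed level was 3605 to 3965 RPKM there, 4864 to 5022 at 72 h and 428 to 755 at 120 h. The 8 mature neutrophil markers summed to 2.97 to 4.09 RPKM in untreated, 375 to 612 in 72 h and 19975 to 20494 in 120 h libraries, with Ly6g at 0 in untreated and 24 h libraries. The 6 monocyte and macrophage markers summed to 3.77 to 4.23 RPKM in untreated, 624 to 682 in 72 h and 1189 to 1257 in 120 h libraries. Ly6c2 made up most of the 72 h sum, at 568 and 608 RPKM. The 6 mast cell, basophil and eosinophil markers summed to 186 to 212 RPKM in untreated, 1352 to 1532 in 72 h and 264 to 490.1 in 120 h libraries. Fcer1a was at 0 in untreated, 24 h, 40 h and 72 h libraries. Prg2 made up most of the 72 h sum, at 1484 and 1306 RPKM against 12.9 and 36.3 in untreated libraries. From untreated to 72 h libraries Cpa3 fell from 128 and 123 to 34.2 and 28.3 RPKM. Mcpt8 fell from 45.4 and 52.4 to 10.1 and 12.2, while Epx and Ms4a2 rose to low levels. The 6 lymphoid markers summed to 61.9 to 62.1 RPKM in untreated, 2.86 to 2.97 in 72 h and 2.69 to 2.76 in 120 h libraries. The 7 erythroid and megakaryocyte markers stayed between 7.44 and 19.6 RPKM and the 5 stromal ones between 1.62 and 4.22 in the 10 libraries. These shifts went along with the differences between groups given below, and their part in them was not tested. In bulk RNA, fewer cells of a type and less RNA per cell cannot be told apart.

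Per length, Hsp90ab1 was the most abundant of the 64 genes, at a mean of 1336 RPKM over the 10 libraries, followed by Hspa8 at 806, Hsp90b1 at 375 and Hspa5 at 320.1 RPKM. The least abundant was Hspa1b at 0.76 RPKM. The 64 genes held 1.53 to 1.58% of coding RPKM in untreated libraries, 1.59 to 1.64% at 24 h, 1.696% in both 40 h libraries and 1.75% in both 72 h libraries. They held 0.679 and 0.786% at 120 h, the lowest of the 5 groups. At 120 h 47 of the 64 genes had their lowest group mean, while 21 had their highest at 40 h and 18 at 72 h. Such counts were not made over all genes, of which 52.7% were called lower at 120 h than in untreated cells. They are therefore not shown to be particular to the chaperones.

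**Figure D1:**
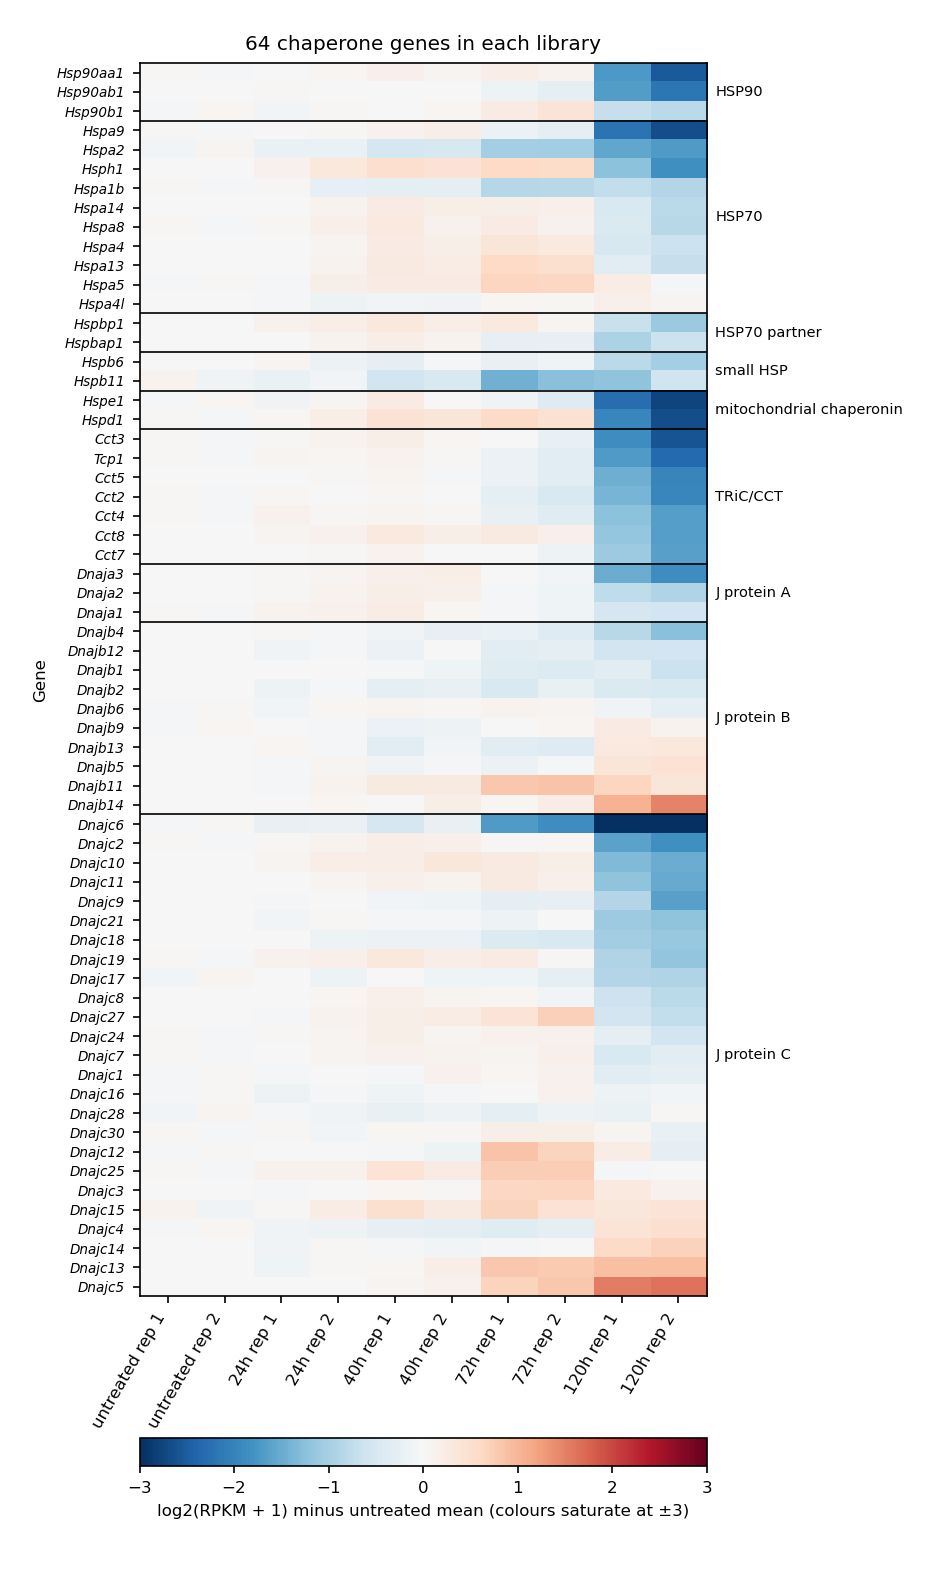
Level of each of 64 chaperone genes (rows, ordered by class and by the 120 h difference) in each of 10 libraries (columns), as log2(RPKM + 1) minus the mean of the untreated libraries, on a scale from blue (lower) to red (higher). The 120 h columns are mostly blue, with Dnajc6 lowest and Dnajc5 and Dnajb14 red, and the 72 h columns are mixed.

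The 120 h group against untreated cells gives the effect of withdrawal without return. The 3 HSP90 genes, the 7 TRiC/CCT subunits and the mitochondrial chaperonins Hspd1 and Hspe1 fell, under median-of-ratios scaling too. The ER chaperones were mixed, and the J proteins Dnajc5, Dnajc13 and Dnajb14 rose. In limma with Benjamini-Hochberg adjustment over the 13004 genes, 45 of 64 (70.3%) were lower and 10 (15.6%) higher. Over all genes tested, 52.7% were lower and 27.5% higher. The median log2 fold change was -0.73 for the 64 genes and -0.36 for all genes tested. Median-of-ratios scaling, which sets the middle gene of each library level, moved the all-gene median to -0.0015 and the chaperone median to -0.36. With that scaling 34 of the 64 were lower and 17 higher, against 5016 and 5125 of the 13004 genes. The 34 were among the 45, the 10 higher genes stayed higher, and 11 genes called lower were no longer called.

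The 72 h group gives chaperone levels once E2 had been back for 48 h, and levels before the add-back were not analysed here. Relative to untreated cells 13 of 64 (20.3%) were higher and 10 (15.6%) lower, against 21.6% and 22.3% of all genes tested, so the shares were close to or below the background. The medians were 0.01 and 0.02. ER chaperones and certain J proteins were on the higher side, and TRiC/CCT was not called. Without both 120 h libraries the counts were 19 higher and 18 lower, against 3945 and 3931 of the 13004 genes. Of the genes counted in this and other comparisons, 4 had passed the threshold only through certain groups, so had to differ between some. These were Dnajc6 and Dnajc18 through all groups but 120 h, Hspa1b through untreated and 24 h, and Dnajb5 through 24 h and 120 h.

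Set directly against the 120 h group, the 72 h group was higher for 47 of 64 (73.4%) and lower for 6 (9.38%), with medians of 0.75 for the 64 genes and 0.32 for all genes tested. The background was 51.0% higher and 26.4% lower. Under median-of-ratios scaling these counts were 36 and 13, against 4352 and 4997 of the 13004 genes. The 32 genes lower at 120 h and not called at 72 h were called higher at 72 h than at 120 h, which their choice on the same untreated libraries nearly fixed. With median-of-ratios scaling 6 of them (Dnaja1, Dnajc1, Dnajc24, Dnajc7, Hspa8 and Hspbap1) lost that call. The 72 h and 120 h differences from untreated cells share the untreated libraries. A missed threshold at 72 h does not show that a level returned to the untreated one.

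**Figure D2:**
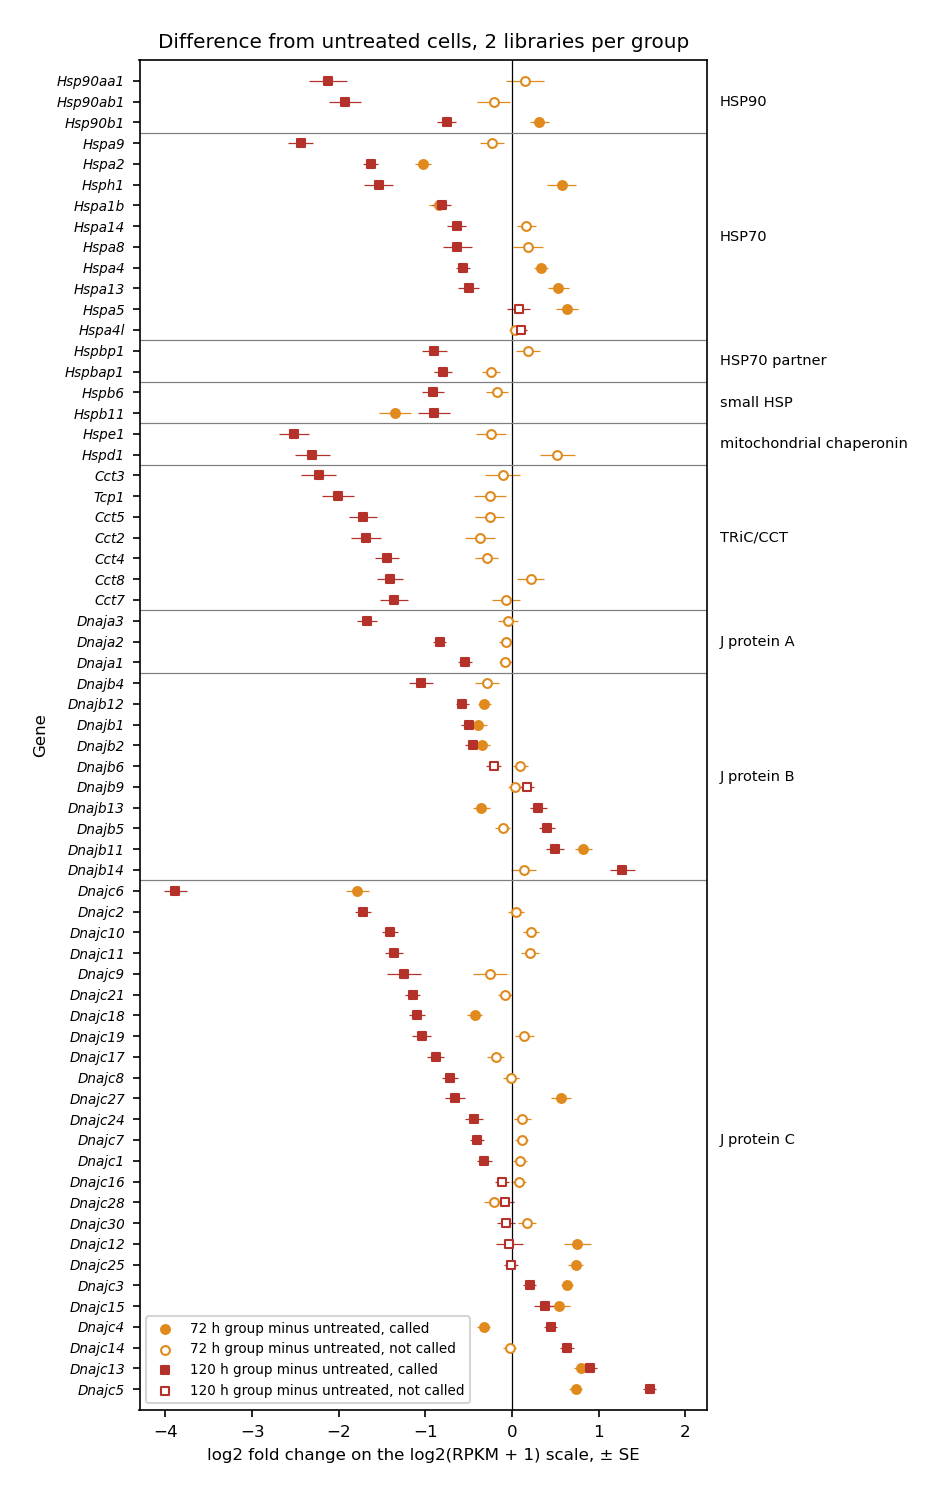
Log2 fold change from untreated cells (horizontal axis, on the log2(RPKM + 1) scale, bars ± SE) of 64 chaperone genes in the 72 h group (circles) and the 120 h group (squares), 2 libraries per group, with filled symbols for genes called by limma at an adjusted p under 0.05. The squares of HSP90, the mitochondrial chaperonins and TRiC/CCT lie to the left of 0, and the circles of ER genes such as Dnajb11 and Hspa5 lie to the right.

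All 3 HSP90 genes fell at 120 h. Hsp90ab1 encodes the constitutive cytosolic form and lies on chromosome 17 (GRCm38, 45567775 to 45573271, minus strand). Its level was 1623 and 1602 RPKM in the untreated libraries, 1642 and 1594 in the 24 h, 1637 and 1614 in the 40 h, 1460.5 and 1333 in the 72 h and 502 and 357 in the 120 h libraries. Both 120 h libraries were below all others, and the first 3 groups overlapped or nearly so, with the 72 h libraries next lowest. It fell at 120 h (log2 fold change -1.93, SE 0.19, adjusted p = 2.57e-05) and was not called at 72 h (-0.21, adjusted p = 0.401), where quantile normalization gave 0.22, also not called.

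Hsp90aa1, the heat-inducible cytosolic form, stood at 308 and 297 RPKM in the untreated libraries, 304 and 317 in the 24 h, 338 and 319 in the 40 h, 349.7 and 323 in the 72 h and 91.4 and 51.5 in the 120 h libraries. Again the 120 h pair was low and set apart, and the 72 h pair lay above the untreated pair. The fall was log2 fold change -2.12, SE 0.22, adjusted p = 3.81e-05. Of the 50-base windows of its transcript, 58.5% also occur in other annotated genes, so its level as a single gene is uncertain. Hsp90ab1, at 4.49%, is less affected.

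Hsp90b1, the HSP90 of the ER also known as GRP94, followed another course. It was at 373 and 400.5 RPKM in the untreated libraries, 366 and 399 in the 24 h, 389 and 406 in the 40 h, 459 and 504 in the 72 h and 237 and 221 in the 120 h libraries. The 72 h libraries were the highest of the 10 and the 120 h libraries the lowest. It was higher at 72 h (log2 fold change 0.31, SE 0.11, adjusted p = 0.0497), a call lost in 11 of 18 alternative settings, and lower at 120 h (log2 fold change -0.75, SE 0.11, adjusted p = 0.000289). The direct difference between 72 h and 120 h was 1.07.

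In the HSP70 family 8 of 10 genes were lower and none higher at 120 h, against 52.7% and 27.5% of all genes tested. Median-of-ratios scaling made these 4 and 2, where 5016 of the 13004 genes were lower and 5125 higher. At 72 h 4 were higher and 2 lower, against 21.6% and 22.3% of all genes tested. Each of these lower counts includes Hspa1b, which had to differ between groups by the threshold. Hspa8, the constitutive cytosolic HSC70, went from 802 ± 19.2 RPKM (mean ± SD, n = 2) in untreated to 523 ± 105 RPKM in 120 h cells (log2 fold change -0.63, SE 0.17, adjusted p = 0.00822). With median-of-ratios scaling it was not called (-0.19), and 74.8% of its windows occur in other genes. At 72 h Hspa8 was not called (0.19).

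Hsph1 and Hspa4 encode HSP110-type nucleotide exchange factors, and both moved in opposite directions in the 72 h and 120 h groups. Hsph1 stood at 16 and 16.3 RPKM in the untreated libraries, 17.8 and 20.4 in the 24 h, 23.3 and 22 in the 40 h, 24.9 and 24.2 in the 72 h and 6.26 and 3.81 in the 120 h libraries. Its 40 h and 72 h libraries were above every untreated and 24 h library, and its 120 h libraries were below all others. It rose at 72 h (log2 fold change 0.58, SE 0.17, adjusted p = 0.0249), a call lost without either untreated or either 72 h library or with no filter, and fell at 120 h (log2 fold change -1.54, SE 0.17, adjusted p = 4.85e-05). Hspa4 rose at 72 h by 0.34 (lost without either untreated library or 72 h replicate 1) and had -0.56 at 120 h, which was called as deposited and not with median-of-ratios scaling (-0.13).

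Hspa14, a ribosome-bound HSP70 that assists newly made chains, had -0.64 at 120 h and was not called with median-of-ratios scaling (-0.21). Its ribosomal J partner Dnajc2 went from 84.6 ± 3.11 to 25.1 ± 2.86 RPKM at 120 h, a change that was called (log2 fold change -1.72, SE 0.09, adjusted p = 7.92e-07). Hspbp1, another exchange factor for HSP70, fell by 0.90 on the log2 scale. Hspbap1, grouped with it by symbol and not by a shared function, fell by 0.79. Hspa4l, an HSP110 relative, was not called in the 6 comparisons (0.11 at 120 h), but was called higher at 120 h with median-of-ratios scaling (0.52).

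Hspa2, an HSP70 best known from the testis, was lower in 3 of the 4 withdrawn groups. It stood at 4.93 and 5.63 RPKM in the untreated libraries, 4.5 and 4.5 in the 24 h, 3.33 and 3.52 in the 40 h, 2.09 and 2.06 in the 72 h and 1.13 and 0.917 in the 120 h libraries. The 40 h, 72 h and 120 h pairs did not overlap one another or the untreated pair. The log2 fold changes from untreated were -0.50 at 40 h (adjusted p = 0.0234), -1.03 at 72 h (adjusted p = 5.88e-05) and -1.63 at 120 h (adjusted p = 1.09e-06). The 72 h group was also below the 40 h group (-0.52, adjusted p = 0.00376). It was the 1 chaperone called at 40 h, a call that 8 of 18 alternative settings did not make.

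Hspa1b, an inducible HSP70, was scarce throughout, at 1.31 and 1.23 RPKM in the untreated libraries, 1.33 and 0.903 in the 24 h, 0.884 and 0.838 in the 40 h, 0.253 and 0.27 in the 72 h and 0.351 and 0.241 in the 120 h libraries. The untreated pair lay above both 72 h and both 120 h libraries. Its twin gene Hspa1a did not exceed 0.149 RPKM, and 62.3% of the Hspa1b windows occur in Hspa1a, so the pair cannot be separated. Hspa1b is just inside the threshold and had to differ between groups, so its fall is given as a description: -0.85 at 72 h and -0.81 at 120 h. Just outside the threshold was Hspa1l, with 1 library at 1.6 RPKM (72 h replicate 2) and the others at 0.317 to 0.896 RPKM.

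A list of 6 mitochondrial members was used (Hspa9, Hspd1, Hspe1, Dnaja3, Dnajc15 and Dnajc19). Of these 5 were lower and 1 higher at 120 h, against 52.7% and 27.5% of all genes tested (median -1.99, or -1.56 with median-of-ratios scaling). The list does not hold every mitochondrial member, so count and median are those of the list alone. Of those left out, Dnajc11 was lower at 120 h. Dnajc30, also left out, was not called there (11.5 in untreated and 11.0 RPKM at 120 h) and was called higher (0.34) with median-of-ratios scaling. Hspd1 and Hspe1 encode HSP60 and HSP10, which form the mitochondrial folding chamber. The genes lie head to head on chromosome 1 (GRCm38; Hspd1 at 55077835 to 55088243 on the minus strand, Hspe1 at 55088132 to 55091307 on the plus strand). Between their RefSeq starts lies a repeat of the heat shock element, the motif bound by heat shock factors, here searched on both strands as GAA, TTC and GAA units each 2 bases apart. It is printed below with that of Hsph1, because these members hold the motif and fell at 120 h. Dnajb6 holds it too, but was not called at 120 h (-0.21) and was called higher (0.23) with median-of-ratios scaling. Capitals mark the bases covered by matches, each sequence runs 5′ to 3′ on the strand of the named gene, and the stretches are from RefSeq on GRCm38.p6.
Hspe1 (chr1:55088051-55088080, plus strand, 97 to 68 bases before the start): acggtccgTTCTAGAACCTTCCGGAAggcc
Hsph1 (chr5:149636287-149636316, minus strand, 20 to 49 bases after the start): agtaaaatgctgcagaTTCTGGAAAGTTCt
In GENCODE M21 the first stretch lies inside an alternative first exon of Hspd1 and the second inside the first exon of Hsph1. RefSeq promoter windows of 300 bases were matched for 52 of the 64 genes, and 4 of the 52 held this motif: Hspd1, Hspe1, Hsph1 and Dnajb6. Hspd1 and Hspe1 share 1 site, whose 2 matches overlap. Of 32851 such windows in the genome, 0.603% held it. A match is a stretch of letters, not a measured binding site.

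Hspd1 was at 244 and 233 RPKM in the untreated libraries, 248 and 273 in the 24 h, 321 and 307 in the 40 h, 358 and 330.1 in the 72 h and 61 and 36.9 in the 120 h libraries. The 40 h and 72 h pairs lay above the untreated pair without overlap and the 120 h pair lay far below. It fell at 120 h (log2 fold change -2.30, SE 0.20, adjusted p = 1.27e-05). At 72 h it was 0.52 above untreated cells and not called (adjusted p = 0.0654), although it was called in fits without either or both 120 h libraries or with quantile normalization. Hspe1 stood at 119 and 131 RPKM in the untreated libraries, 116 and 132 in the 24 h, 148 and 125 in the 40 h, 117 and 95.8 in the 72 h and 24.9 and 17.7 in the 120 h libraries. Its untreated, 24 h and 40 h libraries overlapped, its 72 h pair lay just below the untreated pair and its 120 h pair was lowest (log2 fold change -2.52, SE 0.17, adjusted p = 3.34e-06). Of their windows 44.8% each occur in other genes, so these levels are uncertain.

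Hspa9, known as mortalin, pulls proteins through the inner membrane and folds them in the matrix. It was at 332 and 313 RPKM in the untreated libraries, 322 and 332 in the 24 h, 350.1 and 365 in the 40 h, 283 and 266 in the 72 h and 68 and 50.3 in the 120 h libraries, with the 72 h pair below the untreated pair and the 120 h pair much lower still. The fall at 120 h was log2 fold change -2.44, SE 0.14, adjusted p = 1.21e-06, and at 72 h the difference was -0.23 and not called (adjusted p = 0.214), though it was called without either or both 120 h libraries. Its J partner Dnaja3 went from 34.9 ± 0.725 to 10.3 ± 2.11 RPKM at 120 h, a change that was called (log2 fold change -1.67, SE 0.12, adjusted p = 3.77e-06). The J proteins of the import motor parted: Dnajc19 fell by 1.04 on the log2 scale and Dnajc15 rose by 0.38 (adjusted p = 0.0206), the latter a call lost without untreated replicate 2 or 120 h replicate 2. Dnajc15 was also higher at 72 h (0.55), lost without untreated replicate 2 or 72 h replicate 1.

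Of 7 TRiC/CCT subunits tested, 7 fell at 120 h, in a comparison where 52.7% of all genes tested were lower. Their median log2 fold change was -1.68, and -1.24 with median-of-ratios scaling, where 7 of 7 were again lower. With that scaling 5016 of the 13004 genes were lower. None was called at 72 h (median -0.25), 24 h or 40 h; quantile normalization moved the 72 h median to -0.076 with 1 subunit called higher. In the direct comparison 7 of 7 were higher at 72 h than at 120 h (median 1.46), where 51.0% of all genes tested were higher. At 72 h against untreated, Cct2, Cct4, Cct5 and Tcp1 became lower and Cct8 higher in the fit without the 120 h group, so the subunits did not share 1 direction there.

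Cct3 showed the largest fall, and stood at 231 and 220.4 RPKM in the untreated libraries, 231 and 241 in the 24 h, 257 and 236 in the 40 h, 225 and 194 in the 72 h and 60.9 and 36.7 in the 120 h libraries. One 72 h library lay between the untreated ones and the other below them, while the 120 h libraries were far below (log2 fold change -2.23, SE 0.20, adjusted p = 1.72e-05). Tcp1, the subunit that gave the complex its name, was at 303 and 286 RPKM in the untreated libraries, 313 and 305 in the 24 h, 319 and 303 in the 40 h, 262 and 234 in the 72 h and 90.8 and 58.2 in the 120 h libraries. The 120 h pair was again the lowest (log2 fold change -2.00, SE 0.18, adjusted p = 1.76e-05). Cct5 fell by 1.72, Cct2 by 1.68, Cct4 by 1.44, Cct8 by 1.40 and Cct7 by 1.36 on the log2 scale. Cct6a is typed as a processed transcript in the annotation and is no member, but it had -1.73 at 120 h.

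**Figure D3:**
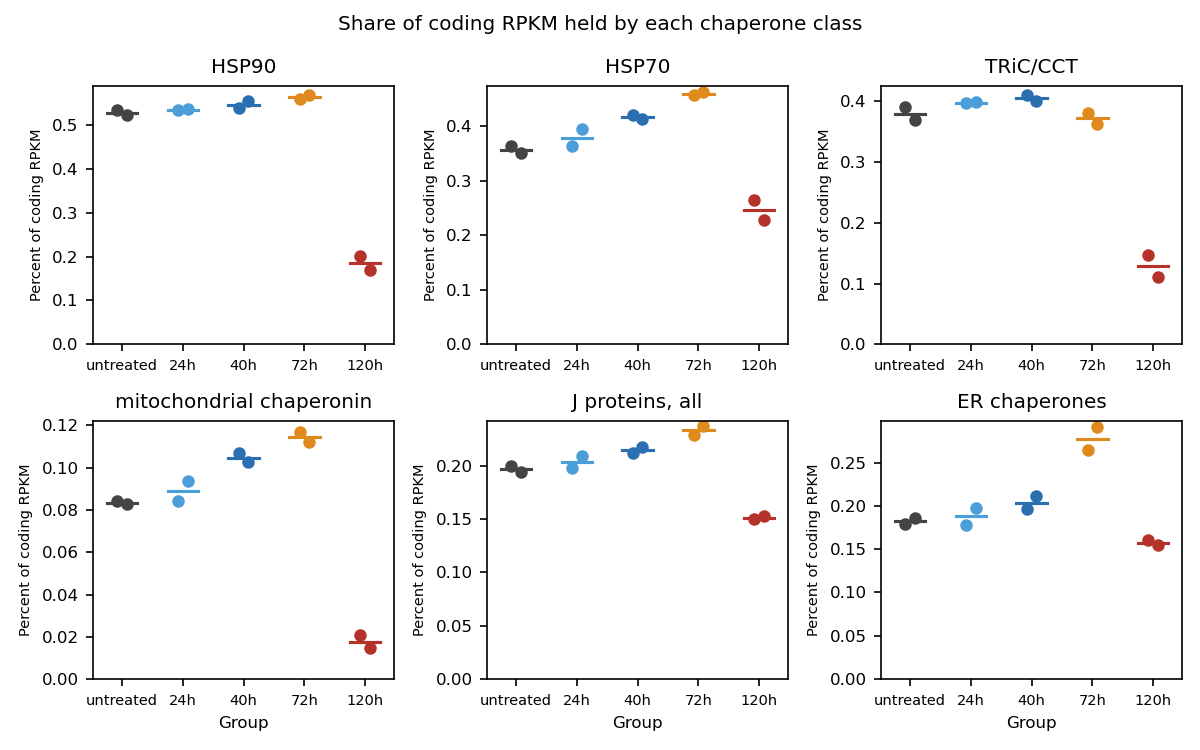
Percent of the RPKM of coding genes held by each chaperone class (vertical axes, from 0, differing between panels) in each library, by group; points are libraries and bars their means, and the ER panel overlaps the HSP90, HSP70 and J protein panels. TRiC/CCT fell from 0.38% in untreated to 0.129% at 120 h, and ER chaperones were highest at 72 h, at 0.278%.

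A list of 8 members that work in the ER, the compartment where secreted and granule proteins fold, was used. Among the members of the ER membrane that were not on it were Dnajb12, Dnajb14, Dnajc14, Dnajc16 and Dnajc18. At 72 h Dnajb12 (-0.32) and Dnajc18 (-0.43) were lower, and Dnajb14, Dnajc14 and Dnajc16 were not called. At 72 h 5 of the 8 were higher and none lower (median 0.43), against 21.6% of all genes tested called higher. At 120 h 2 were higher and 4 lower, against 27.5% and 52.7% of all genes tested. Median-of-ratios scaling made these 4 and 2, against 5125 and 5016 of the 13004 genes. Their promoters are printed here because the genes that rose at 72 h include those with an ER stress response element, the motif through which the unfolded protein response acts. It was searched on both strands as CCAAT and CCACG with 9 bases between them, and its second form as ATTGG and CCACG with 1 base between them. Capitals mark the matches, sequences run 5′ to 3′ on the strand of the gene, and all are from RefSeq on GRCm38.p6.
Hspa5 (chr2:34772017-34772046, plus strand, 73 to 44 bases before the start): cgacttcaCCAATCGGAGGCCTCCACGacg
Hsp90b1 (chr10:86705510-86705664, minus strand, 220 to 66 bases before the start): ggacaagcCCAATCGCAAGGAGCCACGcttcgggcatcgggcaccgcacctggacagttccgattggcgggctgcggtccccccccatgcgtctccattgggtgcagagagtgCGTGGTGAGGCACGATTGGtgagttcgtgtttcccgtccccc
Dnajc3 (chr14:118937732-118937931, plus strand, 200 to 1 bases before the start): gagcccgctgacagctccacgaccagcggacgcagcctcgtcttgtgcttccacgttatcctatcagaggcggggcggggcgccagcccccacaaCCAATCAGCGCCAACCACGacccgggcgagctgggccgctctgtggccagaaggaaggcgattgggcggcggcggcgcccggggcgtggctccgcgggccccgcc
Dnajb11 (chr16:22857844-22857873, plus strand, 1 base before to 28 after the start): cggcggcgATTGGCCCACGcctggctgctc
In GENCODE M21 the Hspa5 site lies in the first exon, those of Hsp90b1 and Dnajc3 lie upstream of the genes, and that of Dnajb11 lies at the start of its first exon. The first form was found in 3 of the 52 matched members, once in Hspa5, once in Dnajc3 and on each strand in Hsp90b1, and in 0.119% of all windows. The second form was found in Dnajb11 and in 0.0365% of all windows.

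Hspa5 encodes BiP, the HSP70 of the ER. It was at 266 and 281 RPKM in the untreated libraries, 267 and 307 in the 24 h, 324 and 325 in the 40 h, 428 and 423 in the 72 h and 319.8 and 261 in the 120 h libraries. Both 72 h libraries exceeded the other 8, and the 120 h pair spanned the untreated pair. It rose at 72 h (log2 fold change 0.63, SE 0.13, adjusted p = 0.00488) and was not called at 120 h (0.08), where median-of-ratios scaling gave a called 0.52. Against the 40 h group the 72 h difference was 0.39 and just missed the call (adjusted p = 0.0553).

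Dnajb11 encodes ERdj3, which hands unfolded chains to BiP, and stood at 20.3 and 20.4 RPKM in the untreated libraries, 19.5 and 22 in the 24 h, 24.8 and 24.8 in the 40 h, 36.4 and 37.4 in the 72 h and 32.3 and 26.4 in the 120 h libraries. The 72 h pair was highest, and the 120 h pair lay above the untreated and 40 h pairs. It rose at 72 h (log2 fold change 0.83, SE 0.10, adjusted p = 0.000366) and at 120 h (log2 fold change 0.50, SE 0.10, adjusted p = 0.00186), and 72 h exceeded 40 h by 0.55. Between 72 h and 120 h the difference of 0.33 was called as deposited and lost in 5 alternative settings, turning to -0.10 with median-of-ratios scaling.

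Dnajc3, the ER co-chaperone P58IPK, was at 21.4 and 21.5 RPKM in the untreated libraries, 20.7 and 21.3 in the 24 h, 22.4 and 22.1 in the 40 h, 33.6 and 34.4 in the 72 h and 26.3 and 23.6 in the 120 h libraries. Its untreated, 24 h and 40 h libraries lay within a narrow band, the 120 h libraries just above it and the 72 h libraries well above. It rose at 72 h (log2 fold change 0.64, SE 0.07, adjusted p = 0.00023). The smaller rise at 120 h (0.21, adjusted p = 0.0278) was lost without either untreated library or 120 h replicate 1, and was 0.63 with median-of-ratios scaling.

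The other members of the ER list diverged. Hspa13, an ER HSP70 lacking the client-binding domain, was 0.54 at 72 h (adjusted p = 0.00734) and -0.50 at 120 h (adjusted p = 0.00425), the latter not called with median-of-ratios scaling. Dnajc10, ERdj5, which reduces disulfide bonds, stood at 67.9 and 67.7 RPKM in the untreated libraries, 71.6 and 78 in the 24 h, 77.5 and 86.2 in the 40 h, 81.9 and 76.7 in the 72 h and 26.4 and 23.4 in the 120 h libraries. Its 120 h pair was lowest by a wide margin (log2 fold change -1.41, SE 0.09, adjusted p = 2.70e-06), and its 72 h difference was 0.22 and not called. Dnajc1, ERdj1, had -0.32 at 120 h, lost with quantile normalization or without untreated replicate 2 and turned to 0.06 with median-of-ratios scaling, and Dnajb9, ERdj4, was not called in the 6 comparisons as deposited.

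A list of 20 other genes of ER folding and the unfolded protein response had 9 higher and 4 lower at 72 h. At 120 h it had 4 higher and 12 lower (5 and 7 with median-of-ratios scaling, against 5125 and 5016 of the 13004 genes). The shares of all genes tested were 21.6% higher and 22.3% lower at 72 h and 27.5% and 52.7% at 120 h, so of these counts the higher one at 72 h lay above the background and the lower one at 72 h and both at 120 h near or below it. Xbp1, the transcription factor of one arm, rose from 28.3 ± 2.35 to 53.7 ± 3.42 RPKM at 72 h (log2 fold change 0.90, adjusted p = 0.000281) and to 69.3 ± 8.52 at 120 h (1.26). Hyou1, an ER exchange factor for BiP, rose by 0.74 at 72 h. In contrast Ddit3, encoding CHOP of the stress-induced arm, fell from 129 ± 1.13 to 49.4 ± 3.73 RPKM at 72 h (-1.37) and to 49.9 ± 4.7 at 120 h (-1.35). Atf4, its upstream factor, was not called at 72 h (0.01) and fell at 120 h (-0.84). Atf6, the ER-bound sensor, rose at both (0.52 and 0.88), as did Edem1, which sorts misfolded proteins for disposal (0.31 and 1.01). The 72 h call of Atf6 was lost without untreated replicate 1, and that of Edem1 without any 1 of the 4 libraries compared.

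**Figure D4:**
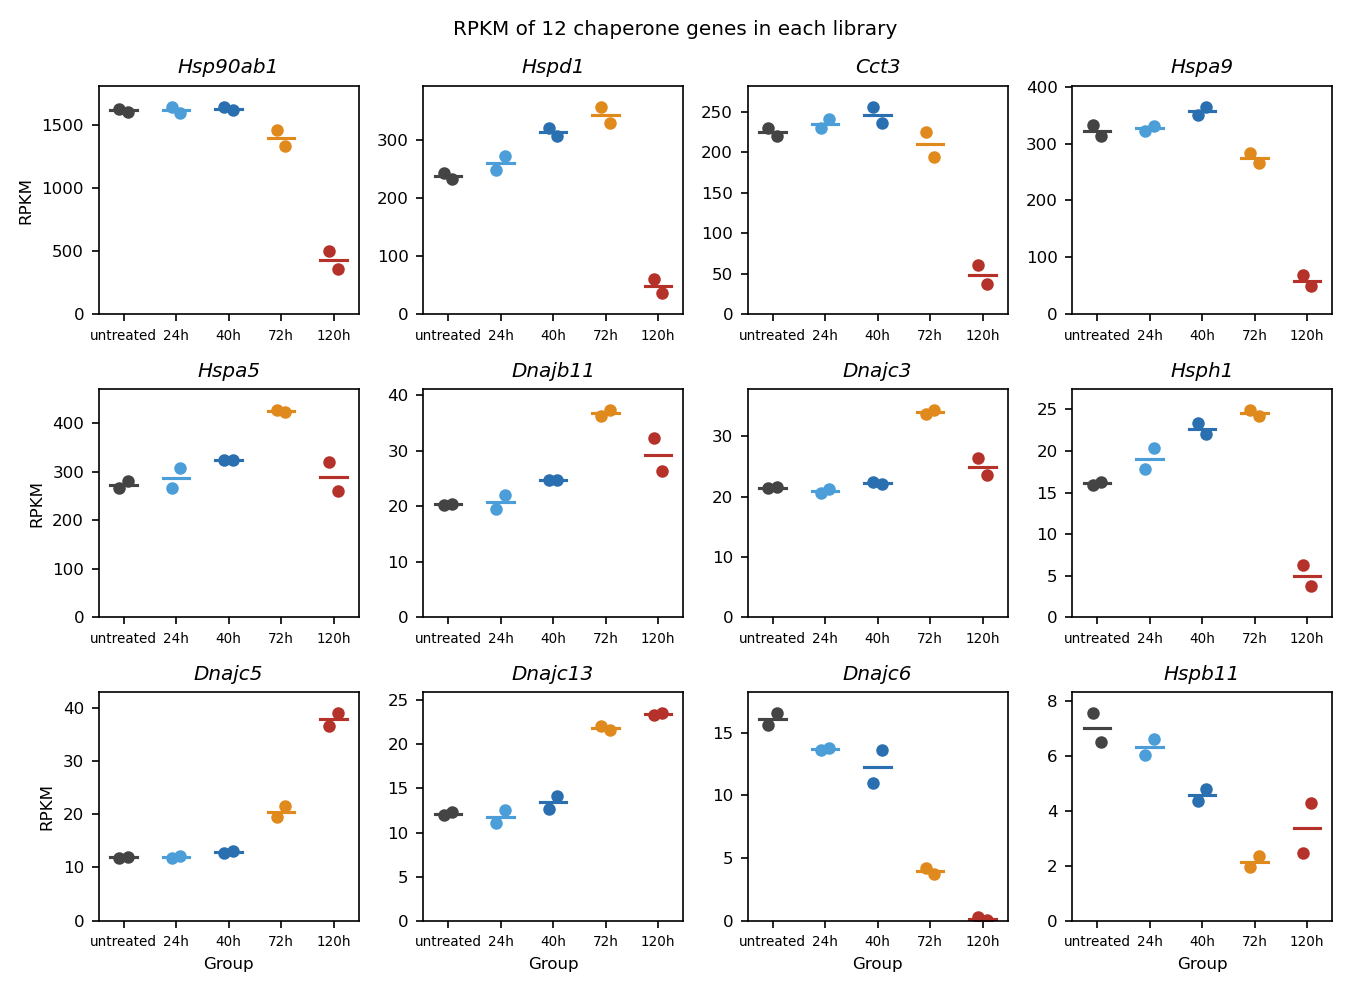
RPKM (vertical axes, from 0, differing between panels) of 12 chaperone genes in each of the 10 libraries, by group; points are libraries and bars the group means. Hsp90ab1, Hspd1, Cct3, Hspa9 and Hsph1 were lowest at 120 h, Hspa5, Dnajb11 and Dnajc3 were highest at 72 h, and Dnajc5 was highest at 120 h.

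Of the 38 J proteins 10 were higher and 21 lower at 120 h, against 27.5% and 52.7% of all genes tested. With median-of-ratios scaling 15 were higher and 14 lower, against 5125 and 5016 of the 13004 genes. At 72 h 8 were higher and 7 lower, against 21.6% and 22.3%. These shares were near the background, so the class as a whole is not set apart and its members are described singly. All 10 higher members at 120 h were J proteins. Between 72 h and 120 h, 24 of the 38 were higher at 72 h and 6 lower, against 51.0% and 26.4% of all genes tested. With median-of-ratios scaling these were 16 and 11, against 4352 and 4997 of the 13004 genes.

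Dnajc5, the cysteine string protein of exocytic vesicles, rose most of the 64 genes at 120 h. It stood at 11.8 and 12 RPKM in the untreated libraries, 11.7 and 12.1 in the 24 h, 12.6 and 13 in the 40 h, 19.4 and 21.6 in the 72 h and 36.6 and 39 in the 120 h libraries. The untreated, 24 h and 40 h libraries were close, the 72 h pair was higher and the 120 h pair higher again, with no overlap. The log2 fold changes were 0.74 at 72 h (SE 0.08, adjusted p = 0.00014) and 1.59 at 120 h (SE 0.08, adjusted p = 4.69e-07). The step between them was also called (-0.85 for 72 h minus 120 h, adjusted p = 1.91e-05).

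Dnajc13, also called RME-8, which works on endosomes, was at 12 and 12.3 RPKM in the untreated libraries, 11.1 and 12.5 in the 24 h, 12.6 and 14.2 in the 40 h, 22.1 and 21.6 in the 72 h and 23.4 and 23.6 in the 120 h libraries. Here the 72 h and 120 h libraries were nearly level and both pairs lay above the rest. It rose at 72 h (log2 fold change 0.80, SE 0.08, adjusted p = 0.000149) and at 120 h (log2 fold change 0.90, SE 0.08, adjusted p = 1.89e-05). Dnajc14 and Dnajb14, both of the ER membrane, rose at 120 h alone, by 0.64 (adjusted p = 9.70e-05) and 1.28 (adjusted p = 6.02e-05), and the 72 h group was below the 120 h group for both (-0.67 and -1.14). Dnajb5 had 0.40 at 120 h, but passed the threshold mainly through that group.

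Dnajc6, auxilin, strips clathrin from vesicles and showed the widest range of the 64 genes. It was at 15.6 and 16.6 RPKM in the untreated libraries, 13.6 and 13.8 in the 24 h, 11 and 13.6 in the 40 h, 4.22 and 3.71 in the 72 h and 0.287 and 0.034 in the 120 h libraries. The 72 h pair lay between the 40 h pair and the 120 h pair with no overlap. The log2 fold changes were -1.79 at 72 h, -3.89 at 120 h and -1.41 for 72 h against 40 h. Because Dnajc6 entered through the other groups, its fall at 120 h is a description.

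Members called higher at 72 h and not at 120 h were Dnajc12, Dnajc25 and Hspa5. Dnajc12 stood at 2.66 and 2.82 RPKM in the untreated libraries, 2.74 and 2.78 in the 24 h, 2.61 and 2.34 in the 40 h, 5.72 and 4.93 in the 72 h and 3.37 and 2.06 in the 120 h libraries. Both 72 h libraries lay above the other 8, and the gene exceeded untreated (log2 fold change 0.76, SE 0.16, adjusted p = 0.00532), 40 h (0.86) and 120 h cells (0.79). Dnajc25 rose from 2.11 ± 0.124 to 4.18 ± 0.0502 RPKM at 72 h, a change that was called (log2 fold change 0.74, SE 0.08, adjusted p = 0.000235) and had -0.01 at 120 h, which became a called 0.29 with median-of-ratios scaling. Dnajc27, which carries a Rab-like GTPase domain, was 0.56 at 72 h and -0.66 at 120 h, both called.

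The J proteins Dnajc4 and Dnajb13 went the other way, lower at 72 h and higher at 120 h. Dnajc4 stood at 9.71 and 10.6 RPKM in the untreated libraries, 9.41 and 9.05 in the 24 h, 8.44 and 8.06 in the 40 h, 7.64 and 8.12 in the 72 h and 13.8 and 14.5 in the 120 h libraries, with the 72 h pair lowest along with the 40 h pair and the 120 h pair highest. The differences were -0.33 (adjusted p = 0.00976) and 0.45 (adjusted p = 0.000695), the first lost without untreated replicate 2 or 72 h replicate 1. Dnajb13, a component of cilia and flagella, had -0.35 and 0.31, and each call was lost in 3 alternative settings.

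Dnajb1, the main partner of HSP70 under heat stress, had -0.39 at 72 h (adjusted p = 0.013, lost without either untreated library or 72 h replicate 2) and -0.49 at 120 h (adjusted p = 0.00165), the second not called with median-of-ratios scaling (-0.07). Dnaja2 and Dnaja1, partners of cytosolic HSP70, fell by 0.83 and 0.54 on the log2 scale, the latter not called with median-of-ratios scaling. Dnajc9, a histone co-chaperone, fell by 1.25, Dnajc21, which acts in ribosome assembly, by 1.15 and Dnajc11 of mitochondria by 1.36. Dnajc8, a splicing-associated J protein and the most abundant of the C class, fell by 0.72 from 96.4 ± 0.499 RPKM. Dnajb4 fell by 1.05 and Dnajb12, of the ER membrane, by 0.58, the latter not called with median-of-ratios scaling and also lower at 72 h (-0.32, lost without either untreated library or 72 h replicate 1).

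The small heat shock proteins were nearly silent apart from 2 genes. Hspb11, also known as IFT25 of ciliary transport, stood at 7.56 and 6.49 RPKM in the untreated libraries, 6.03 and 6.61 in the 24 h, 4.37 and 4.81 in the 40 h, 1.94 and 2.34 in the 72 h and 2.47 and 4.29 in the 120 h libraries. Its 72 h pair was lowest, and its 120 h pair lay between that and the 40 h pair. It fell at 72 h (log2 fold change -1.35, SE 0.18, adjusted p = 0.000629) and 120 h (log2 fold change -0.90, SE 0.18, adjusted p = 0.00189). Hspb6 fell at 120 h (-0.91, adjusted p = 0.000208) and was not called at 72 h (-0.17). Hspb1, the classic inducible member, did not exceed 0.024 RPKM in any library. Of the 18 genes below the threshold, the other 16 besides Hspb1 and Hspa1l stayed at or below 0.367 RPKM.

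The 6 heat-inducible members tested were Hspa1b, Hsph1, Dnajb1, Hsp90aa1, Dnaja1 and Hspa4l. At 72 h 1 was higher and 2 lower, against 21.6% and 22.3% of all genes tested. At 120 h none was higher and 5 were lower, against 27.5% and 52.7%. Under median-of-ratios scaling these were 1 and 3, against 5125 and 5016 of the 13004 genes. Each lower count includes Hspa1b, which passed the threshold only through untreated and 24 h, so its part in them is a description. Hsf1, the main heat shock factor, went from 20.4 ± 0.268 RPKM in untreated to 24.1 ± 1.51 at 72 h (0.23, adjusted p = 0.0306, lost in 7 of 18 alternative settings, among them leaving out either untreated library or 72 h replicate 2) and 10.2 ± 0.232 at 120 h (-0.93, adjusted p = 6.10e-06). Hsf2 was not called at 72 h (-0.08) and had -0.56 at 120 h, not called with median-of-ratios scaling. In a list of 11 immediate early genes, which respond to growth signals and to cell handling, 10 were tested. Of these 10 of 10 were higher at 120 h (median 3.19), against 27.5% of all genes tested. Fos was at 4.60, Zfp36 at 4.08 and Nr4a1 at 3.86. At 72 h 2 of the 10 were higher and 1 lower, against 21.6% and 22.3% of all genes tested. The part of these genes in the chaperone differences was not tested.

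Partners of the chaperones outside the symbol rule fell at 120 h too. Of 23 HSP90 and HSP70 co-chaperones 21 were lower and none higher (18 and 2 with median-of-ratios scaling), with a median of -0.93. Over all genes tested 52.7% were lower and 27.5% higher, which is the background for this and the next 2 lists. With median-of-ratios scaling that background was 5016 lower and 5125 higher of the 13004 genes. Bag2, an exchange factor for HSP70, fell by 2.95 from 18.6 ± 0.885 RPKM, Fkbp4, which docks HSP90 on steroid receptors, by 2.74 from 143 ± 3.3, and Trap1, the HSP90 of mitochondria, by 2.61 from 143 ± 0.781 RPKM. At 72 h 3 co-chaperones were higher and 6 lower, against 21.6% and 22.3% of all genes tested. Ppid, a cyclophilin bound to HSP90, was at 0.70 there. Prefoldin and other CCT partners had 7 lower of 9 and none higher at 120 h (4 and 2 with median-of-ratios scaling), and Pfdn6, which hands clients to CCT, fell by 1.26. In mitochondrial folding and import 12 of 12 were lower at 120 h (10 with median-of-ratios scaling). There the protease Lonp1 fell by 2.70 and Hscb, a J protein for iron-sulfur cluster transfer, by 1.83. At 72 h 3 of those 12 were lower, Lonp1 (-0.97), Hscb (-1.05) and Trap1 (-0.39), and none was higher. The shares of all genes tested were 22.3% lower and 21.6% higher. The Trap1 call was lost without either untreated library, with no filter and in other settings.

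Whether shorter withdrawals, followed by 96 or 80 h with E2 again, left a trace in the chaperones was asked in the 24 h and 40 h groups. At 24 h none of 64 was called by limma, against 0.0% of all genes in each direction. At an unadjusted p under 0.05 the count was 0 of the 64 and 365 of 13004, and voom on recovered reads also called none. The largest differences were those of Hsph1 (0.23) and Dnajc6 (-0.22). Hsp90ab1, Hspa8, Hspd1 and Tcp1 were at 0.00, 0.10, 0.12 and 0.07.

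At 40 h Hspa2 was lower and none was higher, against 3.35% of all genes lower and 0.93% higher. At an unadjusted p under 0.05 there were 13 of the 64 and 2428 of the 13004 genes. The count of calls depended on the 120 h libraries: without both of them 8 were higher and 4 lower, against 611 and 1186 of the 13004 genes. The 8 without both, picked after their values were seen, were Hsph1 (0.46), Hspd1 (0.39), Dnajc25 (0.33), Dnajb11 (0.27), Dnajc10 (0.27), Hspa13 (0.24), Hspa4 (0.21) and Hspa14 (0.21). The 4 lower ones were Hspb11 (-0.52), Hspa2, Dnajc6 (-0.37) and Dnajc4 (-0.27).

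The 72 h group was then set against the 40 h group. These groups differ in withdrawal (72 against 40 h) and in time after E2 returned (48 against 80 h), which cannot be told apart. Of 64 genes 6 (9.38%) were higher and 5 (7.81%) lower, against 13.9% and 13.8% of all genes tested. The difference from the background was not tested. Higher were Dnajc12 (0.86), Dnajc13 (0.67), Dnajc5 (0.63), Dnajc3 (0.59), Dnajb11 (0.55) and Dnajc25 (0.41). Lower were Dnajc6, Hspb11 (-0.83), Hspa1b (-0.56), Hspa2 (-0.52) and Hspbap1 (-0.41). The Hspb11 call was lost without either 40 h library or 72 h replicate 1, and the Hspbap1 call without any 1 of the 4 libraries compared. The Dnajc25 call was lost without 40 h replicate 2. Without both 120 h libraries 11 were higher and 18 lower, against 3011 and 3071 of the 13004 genes. Among the 18 were Cct2, Cct4, Cct5, Tcp1, Hspa9 and Hspe1, at -0.39, -0.35, -0.29, -0.33, -0.38 and -0.36. Without 120 h replicate 1 or without replicate 2 the counts were 11 and 19.

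The 120 h libraries differed more from each other than those of the other groups. In 48 of the 64 genes replicate 2 was below replicate 1, with a median log2 difference of -0.19, against medians of -0.04 to 0.05 in the other 4 groups. Leaving out either 120 h library kept the 120 h counts at 45 to 48 lower and 9 to 10 higher.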

How the data were processed

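RNA from 10 libraries was measured. The RPKM values were deposited by the authors per Ensembl transcript, 1 file per library, per the file headers. The submitters' processing notes name STAR and GRCm38. The version, counting program, use of strand and annotation release were not given in the sources used here, so overlapping and antisense genes cannot be separated. Of 79535 transcripts 77720 matched GENCODE M21, and the rest held 2.64 to 3.24% of RPKM. RPKM times length gave whole reads, within 0.02 reads, in 99.9 to 100% of the low values tested per library.

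Each gene was represented by 1 transcript chosen from the annotation (coding, then APPRIS, CCDS and longest). Genes with at least 1 RPKM in 2 libraries were tested on log2(RPKM + 1), a scale that understates changes of low genes, with limma 3.58.1 in R 4.3.3 (trended eBayes, all 10 libraries, 5 residual and 3.04 prior degrees of freedom). Tests were 2-sided, with calls at a Benjamini-Hochberg adjusted p under 0.05. The fit was tested on simulated data. Groups and replicate numbers came from the titles. Alternatives were a pseudocount of 0.1, no filter, median-of-ratios scaling, quantile normalization, a replicate block, no 120 h group, the highest transcript, voom on recovered reads and each library left out.

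The members, lists and tests were chosen with earlier results of these data known. Named were the HSP90 genes, Hspa8, Hspa5, Hspa9, Hspd1, Hspe1 and Tcp1, per class and comparison at most 4 called members (by size of change) and 2 uncalled ones (by RPKM), members called in opposite directions, those at the threshold, and up to 3 genes and the master factors of each context list. Other members or context genes (among them Dnajc3, Dnajc1, Dnajc9, Dnajc14, Dnajc19, Dnajc21, Hspa14, Atf6 and Edem1) were chosen after their values were seen. Hsf4, Hsf5 and Fosb were under the RPKM threshold, and Hsf3 was not listed.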

Additional observations from a re-analysis of the deposited data

Results flagged for a closer look

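A set of 7 chaperone genes differed between the 72 h and 120 h groups in direction: their log2 fold changes from untreated cells had opposite signs, both were called by limma, and the direct test of the difference between the groups was called too. The value of that test is the 72 h mean minus the 120 h mean on the log2 scale. Hsph1 had 2.11 (adjusted p = 1.06e-05), Dnajc27 1.22 (adjusted p = 3.02e-05), Hsp90b1 1.07 (adjusted p = 4.45e-05), Hspa13 1.04 (adjusted p = 7.37e-05) and Hspa4 0.90 (adjusted p = 1.81e-05). Those 5 were above untreated cells at 72 h and below them at 120 h. Dnajc4 had -0.77 (adjusted p = 3.38e-05) and Dnajb13 -0.66 (adjusted p = 0.000338), being below untreated cells at 72 h and above them at 120 h. In each of the 7 both libraries of the higher group lay above both of the other. The genes were picked by these calls, so the direct difference adds no support of its own. With median-of-ratios scaling it was 0.63 for Hsp90b1, 0.64 for Hspa13, 0.47 for Hspa4, -1.18 for Dnajc4 and -1.01 for Dnajb13. The 120 h call against untreated cells was lost for Hspa4 and Hspa13 with that scaling. The 72 h call was lost in 11 of 18 alternative settings for Hsp90b1, in 5 for Hsph1, in 3 each for Hspa4 and Dnajb13 and in 2 for Dnajc4.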

How the results depend on the processing

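Of the counts of called genes under the alternative settings, 178 stayed within 1.5 times the main value and 34 did not. Median-of-ratios scaling raised the genes higher at 120 h from 10 to 17 and the genes lower in 72 h against 120 h from 6 to 13, and quantile normalization moved the latter to 11. For 40 h against untreated (0 higher, 1 lower), the highest transcript gave 1 higher, a pseudocount of 0.1 and no filter each gave 0 lower, and the fit without the 120 h group gave 8 higher and 4 lower; leaving out each library in turn gave 0 to 8 higher and 0 to 3 lower. For 72 h against untreated (13 higher, 10 lower), the fit without the 120 h group gave 18 lower, and leaving out 1 library gave 9 to 19 higher and 5 to 18 lower. For 72 h against 40 h (6 higher, 5 lower), quantile normalization gave 10 higher, the fit without the 120 h group 11 higher and 18 lower, and leaving out 1 library 5 to 11 higher and 3 to 19 lower. The fit without the 120 h group uses fewer samples, and the cause of the other shifts was not tested.

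The sign turned for these values that were called in the main or the alternative setting, and for the median. The median log2 fold change of the 64 members for 72 h against untreated was -0.021 without untreated replicate 1, and -0.021 to 0.022 over the libraries left out. Median-of-ratios scaling gave called rises at 120 h for Dnajb6 (0.23), Dnajc16 (0.25), Dnajc25 (0.29) and Dnajc30 (0.34), uncalled values for Dnajc1 (0.062) and Dnajc7 (0.033), and, in 72 h against 120 h, a called -0.32 for Dnajb1 and -0.22 for Dnajb2 with uncalled values for Dnajb11 (-0.10), Dnajb12 (-0.16) and Dnajb6 (-0.13). Quantile normalization gave a called 0.27 for Hspa8 in 72 h against 40 h; the cause was not tested. Values called in neither setting also changed sign, among them Hsp90ab1 with quantile normalization (-0.21 to 0.22 for 72 h against untreated, -0.22 to 0.22 for 72 h against 40 h) and Dnajc12 at 120 h with median-of-ratios scaling (-0.03 to 0.30). The 10 correlations of deviations between same-numbered libraries were all positive (0.03 to 0.64) and 8 were over 0.1, but not those of untreated with 40 h and with 72 h. The numbers were therefore not treated as pairing the samples, and a batch shared by some of them cannot be told from this. A replicate block gave 10 instead of 5 lower genes in 72 h against 40 h and moved no other count of chaperone calls by over 1.5 times. With 2 libraries per group and genes near 1 RPKM, small changes were not detectable.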

Other observations

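Ratios of RPKM within a library are given as a description, with no test. The Hspd1 to Hspe1 ratio was 1.91 ± 0.19 (SD, n = 2) in untreated, 2.1 ± 0.049 in 24 h, 2.31 ± 0.195 in 40 h, 3.26 ± 0.265 in 72 h and 2.27 ± 0.256 in 120 h libraries. Both 72 h libraries (3.07 and 3.44) exceeded the other 8. The Hspa9 to Hspd1 ratio was 1.35 ± 0.0138 in untreated, 0.798 ± 0.0113 in 72 h and 1.24 ± 0.175 in 120 h libraries, with both 72 h libraries below the rest. Hsp90aa1 to Hsp90ab1 was 0.188 ± 0.00292 in untreated, 0.241 ± 0.00226 in 72 h and 0.163 ± 0.0267 in 120 h libraries. Between ER and cytosolic forms, Hspa5 to Hspa8 went from 0.342 ± 0.0216 in untreated to 0.467 ± 0.0203 at 72 h and 0.558 ± 0.0314 at 120 h, and Hsp90b1 to Hsp90ab1 from 0.24 ± 0.0141 to 0.346 ± 0.0454 and 0.546 ± 0.104. In both ratios the 72 h and 120 h libraries lay above the untreated, 24 h and 40 h ones. The highest CCT subunit stood 2.06 to 2.35 times above the lowest in the 10 libraries. Shared windows make the Hspd1, Hspe1, Hspa8 and Hsp90aa1 levels uncertain. The same limit holds to a lesser degree for other members, as 16 of the 64 shared over 10% of windows. Among these were Dnajb6 (41.9%), Dnajc19 (32.0%), Dnaja1 (28.8%), Dnajc14 (25.6%), Tcp1 (22.2%), Hspa14 (15.6%) and Hsp90b1 (13.8%).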
